A study of Mus musculus with 12 samples.

Results

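Abhd2 and 9 related genes of the serine hydrolase family were examined in the liver of adult mice that had been exposed to vitamin D deficiency before birth. The members were Abhd2, Abhd1, Abhd3, Abhd4, Abhd5, Abhd6, Abhd12, Abhd14b, Abhd15 and Mgll, which are 10 of the 52636 genes counted. Abhd2 was chosen because of its difference between the diets in these same libraries, so its values are a description and carry no test. The other 9 are a named selection of Abhd genes with the monoacylglycerol lipase Mgll, made to ask whether the difference was particular to Abhd2. The Abhd genes outside this selection are given further on as a separate list.

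Liver RNA came from 12 male C57Bl/6J mice at 16 weeks of age, with 1 library per mouse. VDD-F1 were 6 offspring of dams kept on a vitamin D-deficient diet with calcium gluconate, and VDS-F1 were 6 offspring of dams kept on a vitamin D-sufficient diet. Dams of both groups received the sufficient diet from delivery, and the offspring received it from weaning until sampling. The groups therefore differ in the diet of the dam up to delivery, and per the study vitamin D also remained low in early postnatal life, so exposure before and after birth cannot be told apart. The litter of each mouse is not given in the sources used here, so p-values measure the spread between these mice. Between 14275793 and 20815066 fragments per library were counted on the strand of a gene. VDS6 stood apart, with 11.1% of fragments in no gene where the other libraries had 2.52% to 4.94%. It also had the fewest genes detected (16432), although VDS1 was close to it (16457). Without VDS6 the log2-fold change of Abhd2 was 1.20 and 0 of the other 9 members were called by edgeR. Levels are given as CPM, which are counts scaled to library size after TMM normalization. Mouse numbers in the study's supplement, taken to be those of the libraries, separate 7 mice with a recorded liver weight (VDD4 to VDD6 and VDS3 to VDS6) from 5 without one (VDD1 to VDD3, VDS1 and VDS2). This division is called the set of mice, and it was used for values within each set, for the test of a difference between sets and as a covariate in an alternative fit.

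The Abhd proteins share the alpha/beta hydrolase fold, in which a serine, a histidine and an acid residue form the catalytic site that cleaves ester, amide or thioester bonds. Abhd5 is an exception, since it lacks the catalytic serine. Most known substrates are lipids: Mgll, Abhd6, Abhd12 and Abhd2 can hydrolyse monoacylglycerols, including the endocannabinoid 2-arachidonoylglycerol. In the liver, such enzymes act on the route by which stored triacylglycerol and membrane phospholipid are broken down to fatty acids.

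The stretches before the annotated starts of Abhd2 and Mgll are shown because these genes had the largest diet difference and the largest variation among VDD-F1 mice of the 10 members, in that order. Both are reference sequence from RefSeq (GRCm38.p6, plus strand, 5′ to 3′), and capitals mark CCAAT in either orientation.
Abhd2, chr7:79273016-79273198: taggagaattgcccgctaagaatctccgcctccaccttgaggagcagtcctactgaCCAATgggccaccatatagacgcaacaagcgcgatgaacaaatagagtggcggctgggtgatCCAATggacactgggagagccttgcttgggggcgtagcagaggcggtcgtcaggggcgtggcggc
Mgll, chr6:88724162-88724411: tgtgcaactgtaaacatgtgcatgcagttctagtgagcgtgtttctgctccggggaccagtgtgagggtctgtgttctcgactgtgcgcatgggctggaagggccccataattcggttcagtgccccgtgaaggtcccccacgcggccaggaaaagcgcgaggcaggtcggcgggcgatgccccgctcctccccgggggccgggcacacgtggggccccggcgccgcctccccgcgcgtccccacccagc
The Abhd2 stretch held 2 CCAAT motifs, and the Mgll stretch held none. Promoters were found for 7 of the 10 members, with 10 starts between them. In the 250 bases before each RefSeq start, CCAAT was present for Abhd2, Abhd15 and the first starts of Abhd4 and Abhd6. It was present in 33.9% of all 32851 promoters. GGGCGG, searched on both strands like CCAAT, was present for Abhd2, Abhd5, Abhd15, both starts of Abhd4 and the second starts of Abhd6 and Mgll. It was present in 32.7% of all promoters. The Abhd2 match lies after the end of the printed stretch, which stops before the GENCODE start and so covers only the first 183 of these 250 bases. TATAAA was found for no member and in 12.4% of promoters. A direct repeat of AGGTCA with a spacer of 3 bases, of the kind that the vitamin D receptor binds, was found for no member and in 0.006% of promoters. The 10 starts had 8 to 40 CpG in these 250 bases, where the median of all promoters was 6.

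Abhd2, a monoacylglycerol lipase that is activated by progesterone in sperm, lies at chr7:79273199-79365508 on the plus strand (ENSMUSG00000039202.12). Its levels in VDD1 to VDD6 were 277, 731, 451, 529, 517 and 396 CPM. Its levels in VDS1 to VDS6 were 228, 236, 156, 240, 194 and 215 CPM. All VDD-F1 mice were above all VDS-F1 mice, although VDD1 stood only a little above the highest VDS-F1 mouse. Among all genes tested, 0.61% had VDD-F1 libraries wholly above VDS-F1 libraries, and nothing is read from this share for a gene chosen on the same contrast. The means were 483 ± 152 CPM in VDD-F1 and 212 ± 31.8 CPM in VDS-F1 (SD, n = 6 each). The log2-fold change was 1.19 with a standard error of 0.19, which is a fold of 2.28. This log2-fold change was 1.25 in the mice with a recorded liver weight and 1.07 in the mice without one. The spread among mice was larger in VDD-F1, with a coefficient of variation of 31.5% against 15.03% in VDS-F1. Because whole tissue was measured, more cells that express Abhd2 and more Abhd2 RNA per cell cannot be told apart, and the same holds for every gene below.

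**Figure D1:**
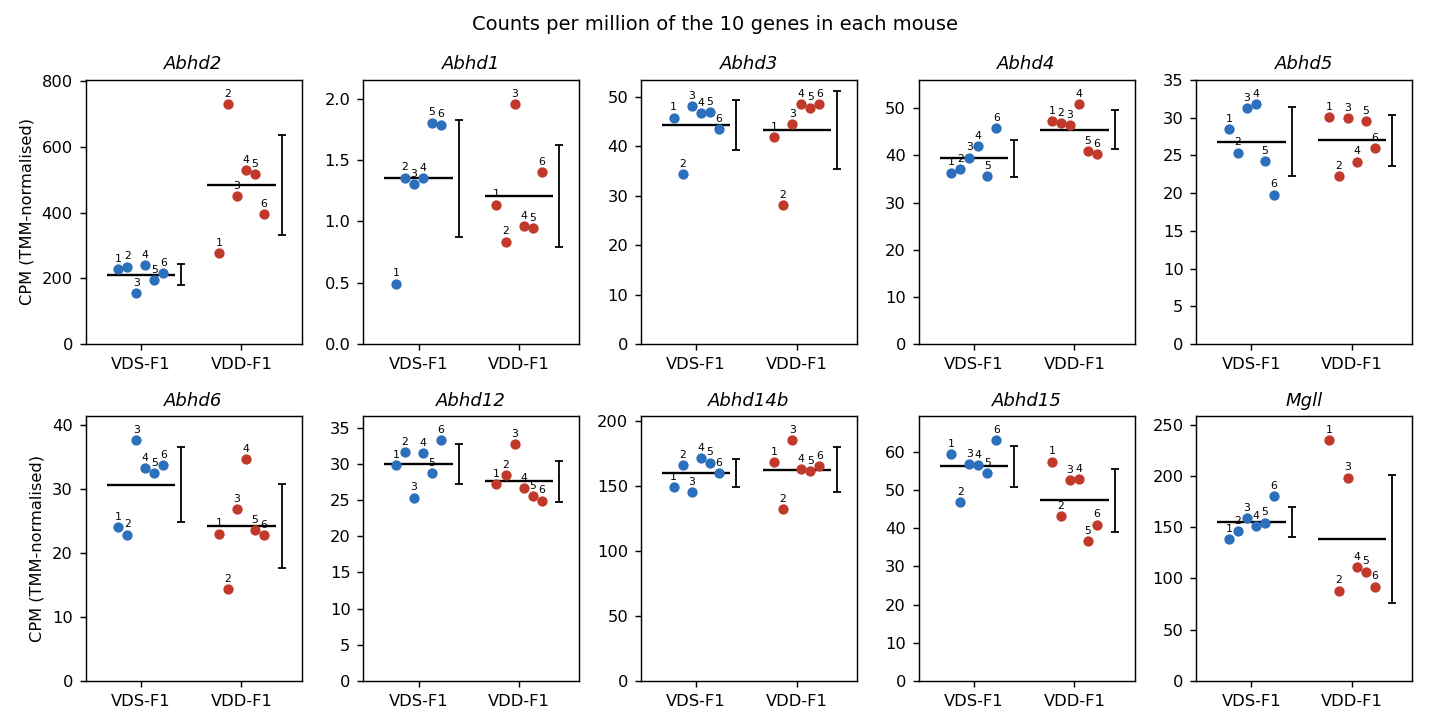
Level of each of the 10 members in CPM (linear axes from 0) in VDS-F1 (blue) and VDD-F1 (red), with 1 point and its mouse number per library, a line at the group mean and a bar beside it for the SD (n = 6). Abhd2 is the member whose groups are apart, from 277 to 731 CPM in VDD-F1 against 156 to 240 CPM in VDS-F1, and Mgll spreads from 88.2 to 235 CPM within VDD-F1.

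All 10 members passed the filter of a mean count of at least 12, and the other 9 were tested with the whole table of 12453 genes. None of the 9 was called by the edgeR quasi-likelihood test with Benjamini-Hochberg adjustment (adjusted p under 0.05 and a log2-fold change beyond 1), where 0.0402% of all genes tested were called. DESeq2 and limma voom gave an adjusted p under 0.05 to 0 of the 9, against 4.05% and 4.74% of all genes. At an unadjusted p under 0.05, Abhd4 was on the higher side and Abhd15 on the lower side, where 9.55% of all genes were on the higher and 6.29% on the lower side. The log2-fold change was above 0 for 3 of the 9, where 50.8% of all genes were above 0, and its median was −0.12 beside 0.0041 for all genes. Their adjusted p-values with edgeR ran from 0.273 to 0.990. In each of the 9, the VDD-F1 and VDS-F1 ranges overlapped, which holds for most genes. Among all genes tested, 0.61% had VDD-F1 libraries wholly above VDS-F1 libraries and 0.57% wholly below. The 9 together reached 517 ± 90.6 CPM in VDD-F1 and 544 ± 28.0 CPM in VDS-F1.

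**Figure D2:**
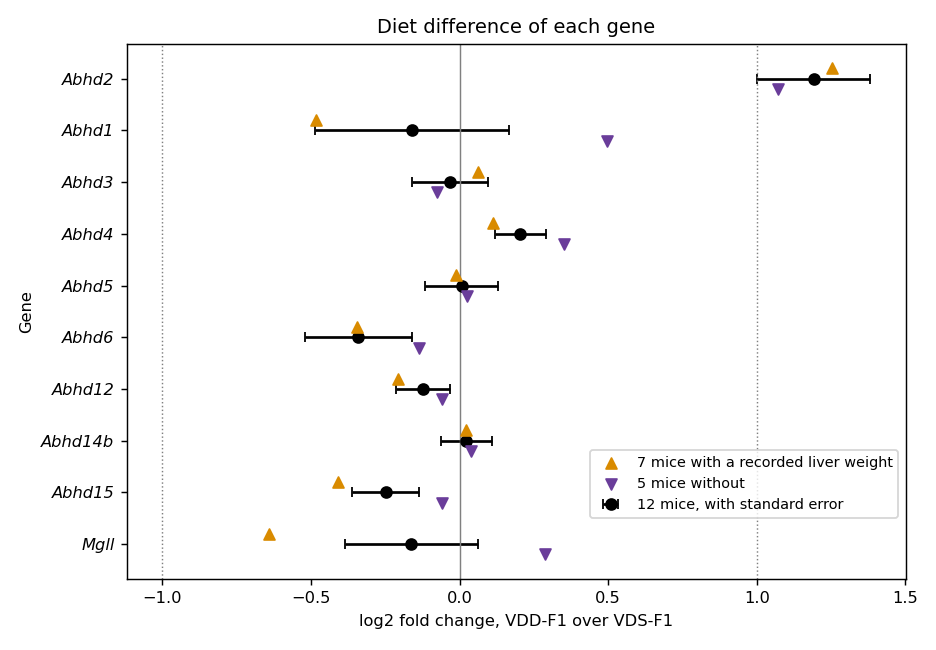
Log2-fold change of each member, VDD-F1 over VDS-F1, from all 12 mice (circles, with standard errors), the 7 mice with a recorded liver weight (upward triangles) and the 5 without one (downward triangles), with dotted lines at -1 and 1. Abhd2 lies at 1.25 and 1.07 in these sets, while Mgll lies at −0.64 and 0.29.

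Mgll, the main monoacylglycerol lipase of most tissues and the principal enzyme that degrades 2-arachidonoylglycerol in brain, lies at chr6:88724412-88828360 on the plus strand. Its levels in VDD1 to VDD6 were 235, 88.2, 199, 111, 107 and 92.1 CPM. Its levels in VDS1 to VDS6 were 138, 146, 159, 151, 155 and 181 CPM. VDD1 and VDD3 were above every VDS-F1 mouse, and the other 4 VDD-F1 mice were below every VDS-F1 mouse. The mean was therefore little different, at 139 ± 62.1 CPM in VDD-F1 and 155 ± 14.5 CPM in VDS-F1. The coefficient of variation of Mgll was 44.8% in VDD-F1, against 9.33% in VDS-F1. The log2-fold change was −0.16 with a standard error of 0.22 and an adjusted p of 0.771 (edgeR), and the 95% interval of the fold was 0.642 to 1.24. Leaving out 1 mouse moved it between −0.38 (without VDD1) and −0.06 (without VDD2), and limma voom gave −0.36.

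The size of the Mgll difference varied with the mice that were compared. In the 7 mice with a recorded liver weight, the log2-fold change was −0.64 with a standard error of 0.10 and an adjusted p of 0.00164 (edgeR). In that comparison 632 of 12369 genes, or 5.11%, were lower in VDD-F1 at an adjusted p under 0.05. In the 5 mice without one, it was 0.29 with a standard error of 0.38, and VDD2 was low while VDD1 and VDD3 were high. The difference between the sets was −0.93 on the log2 scale with a standard error of 0.37, an unadjusted p of 0.0269 and an adjusted p of 0.489 in the edgeR interaction test. In that test 0.0883% of all genes had an adjusted p under 0.05 and 9.01% an unadjusted p under 0.05. Without VDD2 the difference was −1.25 with a standard error of 0.17 and an adjusted p of 0.00141 (edgeR), so 1 mouse decided the call. The count over all genes rose as well without VDD2, from 11 to 332 genes (2.68%) at an adjusted p under 0.05, so the change of call is not particular to Mgll. Without VDD1 the difference between the sets was −0.65 with a standard error of 0.34 and an unadjusted p of 0.0779 (edgeR interaction test). That p was also above 0.05 without VDD3, VDD6, VDS1 or VDS2.

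Among VDD-F1 mice, the highest Abhd2 level and the lowest Mgll level occurred in the same mouse, VDD2. The lowest Abhd2 level and the highest Mgll level also occurred in the same mouse, VDD1. VDD3 was high in Mgll and intermediate in Abhd2, and VDD6 was low in Mgll with the second lowest Abhd2 of its group, so the levels did not run opposite in all 6 mice.

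Markers of stellate cells and fibroblasts also varied among VDD-F1 mice. The summed level of 8 such markers in VDD1 to VDD6 was 301, 931, 458, 597, 526 and 493 CPM, and it ranged from 284 to 457 CPM in VDS-F1. VDD2 was highest and VDD1 lowest in both this sum and Abhd2, and VDD4 and VDD5 came after VDD2 in both. VDD6 was above VDD3 in the marker sum and below it in Abhd2. The groups overlapped in the marker sum, since VDD1 was within the VDS-F1 range. All 8 markers had a log2-fold change above 0 (median 0.57). With edgeR 5 had an unadjusted p under 0.05, where 9.55% of all genes were higher, and 0 had an adjusted p under 0.05. The markers did not rise alike: Col1a1, Col3a1 and Lum had log2-fold changes of 2.27, 1.78 and 1.43, while Lrat and Reln had 0.12 and 0.09. DESeq2 gave an adjusted p under 0.05 to 2 of the 8 and limma voom to 4, Col1a1 and Col3a1 with both. Markers of cholangiocytes had the same order among VDD-F1 mice as those of stellate cells, with sums of 23.9, 117, 40.2, 71.9, 64.9 and 58.1 CPM in VDD1 to VDD6 and 27.6 to 51.0 CPM in VDS-F1. Of 5 cholangiocyte markers tested, all 5 had a log2-fold change above 0 (median 0.60), 3 at an unadjusted p under 0.05 and 0 at an adjusted p under 0.05 with edgeR, DESeq2 or limma voom. Lymphocyte and dendritic cell markers also summed highest in VDD2, at 23.5 CPM, with 3.31 to 10.9 CPM in the other VDD-F1 mice and 2.20 to 5.13 CPM in VDS-F1. Of the 8 markers in this list, 3 passed the filter. Itgax, with up to 12.4 CPM in VDD-F1, had a log2-fold change of 2.33 with a standard error of 0.57. Its adjusted p was 0.0918 with edgeR and 0.00256 with DESeq2. Cd3e and Cd79a had log2-fold changes of 0.61 and 0.78, with adjusted p-values of 0.693 and 0.537 (edgeR). The part of these cells in the Abhd2 values was not tested.

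**Figure D3:**
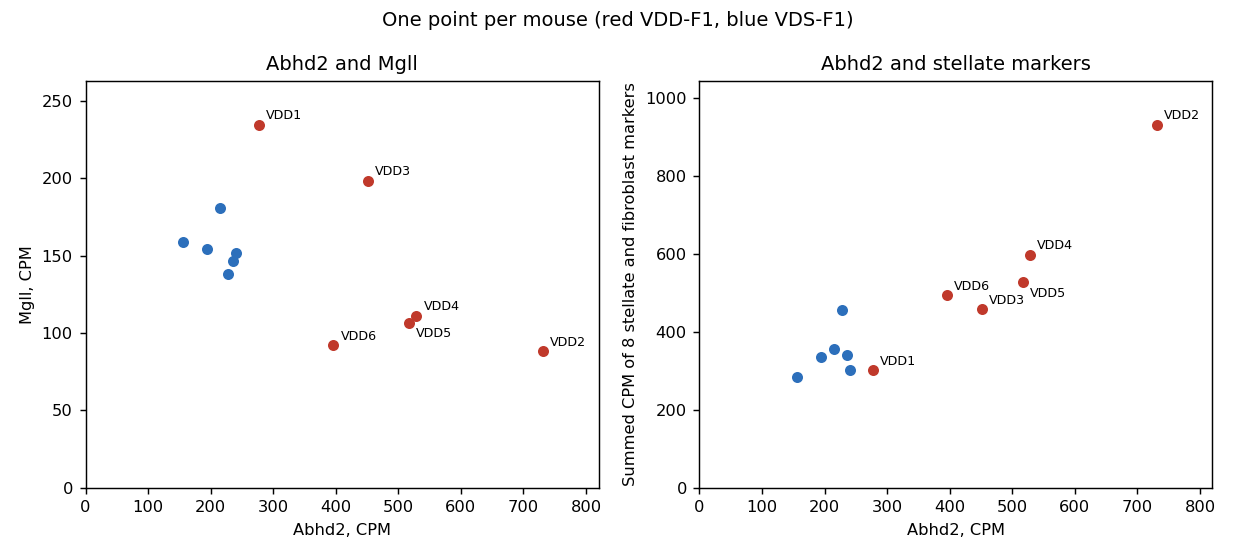
Abhd2 level in CPM against Mgll level (left) and against the summed level of 8 stellate cell and fibroblast markers (right), with 1 point per mouse, VDD-F1 in red with mouse names and VDS-F1 in blue. VDD2 has 731 CPM of Abhd2, 88.2 CPM of Mgll and 931 CPM of the markers, and VDD1 has 277, 235 and 301 CPM.

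The remaining marker sums overlapped between the groups as well. The hepatocyte sum was 87968 to 105590 CPM in VDD-F1 and 79721 to 95497 CPM in VDS-F1, which matches the labelled tissue. Of its 8 markers, 4 had a log2-fold change above 0 and 4 below 0, with 0 higher and 2 lower at an unadjusted p under 0.05 and 0 at an adjusted p under 0.05 with edgeR. Serpina1c, one of the 2, had a log2-fold change of −0.60 and an adjusted p of 0.0855 with edgeR, 0.00117 with DESeq2 and 0.0155 with limma voom, while Alb had 0.24 and 0.379 with edgeR, 0.0599 with DESeq2 and 0.0491 with limma voom. Kupffer cell and macrophage markers summed to 136 to 350 CPM in VDD-F1 and 185 to 346 CPM in VDS-F1. Of these 8 markers, 2 had a log2-fold change above 0 and the median was −0.23. With edgeR 0 had an adjusted p under 0.05 and 2, Clec4f and Timd4, were lower at an unadjusted p under 0.05, and DESeq2 gave 0 and limma voom 1 (Clec4f) at an adjusted p under 0.05. Endothelial markers summed to 302 to 395 and 305 to 435 CPM, with a median log2-fold change of −0.07 over 8 markers. With edgeR 0 had an adjusted p under 0.05, while 1 (Lyve1) was higher and 2 (Stab2 and Clec4g) were lower at an unadjusted p under 0.05, and DESeq2 gave 0 and limma voom 1 (Stab2) at an adjusted p under 0.05. The sums of red blood cell markers were 269 to 752 and 237 to 1377 CPM. Adipocyte markers summed to 5.57 to 12.9 and 3.16 to 15.3 CPM, and Lep and Retn were at 0 counts in all 12 libraries. The part of these cells in the members' values was not tested.

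Abhd6 and Abhd12 are the further monoacylglycerol and lysophospholipid lipases of the group. Abhd6 hydrolyses 2-arachidonoylglycerol at the inner face of membranes and lies at chr14:8002902-8056763 on the plus strand. Its lowest, median and highest levels were 14.4, 23.3 and 34.7 CPM in VDD-F1 and 22.8, 32.8 and 37.5 CPM in VDS-F1. The groups overlapped, with the VDD-F1 median near the lowest VDS-F1 mouse. Its log2-fold change was −0.34 with a standard error of 0.18 and an adjusted p of 0.374 (edgeR), and the 95% interval of the fold was 0.605 to 1.03. Abhd12, whose main known substrate is lysophosphatidylserine, lies at chr2:150832493-150904741 on the minus strand. It had 24.9, 27.0 and 32.8 CPM in VDD-F1 and 25.4, 30.7 and 33.3 CPM in VDS-F1, which overlapped over almost the whole range. Its log2-fold change was −0.12 with a standard error of 0.09 (adjusted p 0.533, edgeR).

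Abhd4, Abhd5 and Abhd15 act on N-acyl phospholipids or around the lipid droplet. Abhd4 releases the acyl chains of N-acyl phosphatidylethanolamine, a precursor of N-acylethanolamines, and lies at chr14:54254188-54270637 on the plus strand. It had 40.2, 46.6 and 50.9 CPM as lowest, median and highest in VDD-F1 and 35.6, 38.3 and 45.8 CPM in VDS-F1. The VDD-F1 median lay above the highest VDS-F1 mouse, and the ranges overlapped. The difference on the log2 scale was 0.20 with a standard error of 0.09, an unadjusted p of 0.0333 and an adjusted p of 0.273 (edgeR), and the fold interval was 1.01 to 1.31.

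Abhd5, also known as CGI-58, activates the triacylglycerol lipase Pnpla2. It lies at chr9:122351608-122381524 on the plus strand and had 22.2, 27.8 and 30.05 CPM in VDD-F1 and 19.8, 26.9 and 31.8 CPM in VDS-F1. The VDD-F1 mice lay wholly inside the VDS-F1 range. Its log2-fold change was 0.01 with a standard error of 0.12, and the fold interval was 0.838 to 1.204. Abhd15, which binds the phosphodiesterase Pde3b in adipocytes and is needed there for insulin to restrain lipolysis, lies at chr11:77515121-77538607 on the plus strand. It had 36.7, 48.0 and 57.5 CPM in VDD-F1 and 47.0, 56.7 and 63.0 CPM in VDS-F1. Its groups overlapped with VDD-F1 shifted downward. On the log2 scale the difference was −0.25 with a standard error of 0.11, an unadjusted p of 0.0449 and an adjusted p of 0.302 (edgeR). It was −0.41 in the mice with a recorded liver weight (adjusted p 0.0593, edgeR) and −0.06 in those without one. The difference between the sets had an adjusted p of 0.722 (edgeR interaction test).

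Abhd14b has been described as a protein lysine deacetylase and lies at chr9:106447459-106452923 on the plus strand. It had 132, 164 and 185 CPM in VDD-F1 and 145, 163 and 171 CPM in VDS-F1. All VDS-F1 mice lay inside the VDD-F1 range, and the log2-fold change was 0.02 with a standard error of 0.09 and a fold interval of 0.895 to 1.154.

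Abhd1 and Abhd3 are the closest relatives of Abhd2 in the family. Abhd3, which cleaves phosphatidylcholines with medium-length acyl chains, lies at chr18:10642092-10706771 on the minus strand. It had 28.1, 46.1 and 48.6 CPM in VDD-F1 and 34.5, 46.2 and 48.1 CPM in VDS-F1. VDD2 and VDS2 stood low in their groups, and the other mice of both groups lay between 41.9 and 48.6 CPM. Its log2-fold change was −0.03 with a standard error of 0.13, and the fold interval was 0.807 to 1.18. Abhd1, whose substrate is little known, lies at chr5:30950066-30955091 on the plus strand and was near the detection limit, with 10 to 30 counts per library. It had 0.835, 1.05 and 1.96 CPM in VDD-F1 and 0.494, 1.35 and 1.81 CPM in VDS-F1, which overlapped almost completely. Its log2-fold change was −0.16 with a standard error of 0.33, and the fold interval of 0.552 to 1.45 leaves a wide range.

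Over the other 9 members, the 95% intervals of the fold reached down to 0.552 for Abhd1, 0.605 for Abhd6 and 0.642 for Mgll, and up to 1.45 for Abhd1 and 1.31 for Abhd4. A missed threshold does not show that a member had the same level in both groups.

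Strand bore on several members, because their exons overlap genes on the opposite strand. Of the stranded counts at Abhd1, 8.78% were on the strand of Abhd1, and 1575 of its exon bases overlap Preb. For Abhd15 that share was 93.2%, and for the other 8 members it was at least 99.2%. The count that ignores strand leaves out fragments that fall in overlapping genes, and it came to 7.17% of the strand-specific count for Abhd1, 31.7% for Abhd14b, 38.0% for Abhd15, 81.6% for Abhd5 and 92.0% for Mgll. Preb had 81.5 CPM in VDD-F1 and 88.9 CPM in VDS-F1, with a log2-fold change of −0.13 and an adjusted p of 0.490 (edgeR). Exons of Abhd14b overlap Abhd14a (log2-fold change 0.17) and Gm28959, and those of Abhd15 overlap Trp53i13 (0.03), Taok1 (0.13) and Gm10392. Gm28959 and Gm10392 were below the filter, and A730085K08Rik, opposite Abhd5, had 0 counts in all libraries. Gm26588, on the opposite strand of Mgll, had 2.34 CPM in VDD-F1 and 4.32 CPM in VDS-F1, with a log2-fold change of −0.90, a standard error of 0.39 and an adjusted p of 0.283 (edgeR).

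Levels of different genes were compared only per length, as CPM per kilobase of exon, here called RPKM. In VDS-F1 the order was Abhd14b at 59.9, Mgll at 30.5, Abhd2 at 20.0, Abhd3 at 19.0, Abhd15 at 18.5, Abhd6 at 12.9, Abhd4 at 12.02, Abhd12 at 10.7, Abhd5 at 4.51 and Abhd1 at 0.768 RPKM. Neighbours in this order whose ranges over the 6 mice did not overlap were Abhd14b over Mgll, Mgll over Abhd2, Abhd12 over Abhd5 and Abhd5 over Abhd1. The other neighbours overlapped. In VDD-F1 Abhd2 came second at 45.7 RPKM, between Abhd14b at 60.8 and Mgll at 27.3 RPKM, and both neighbours overlapped with it. Only Abhd12 over Abhd5 and Abhd5 over Abhd1 were apart in VDD-F1. Abhd2 made up 22.3% ± 7.60 of the summed per-length level of the 10 members in VDD-F1 (12.4 to 35.1%) and 10.6% ± 1.59 in VDS-F1 (8.10 to 12.3%).

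**Figure D4:**
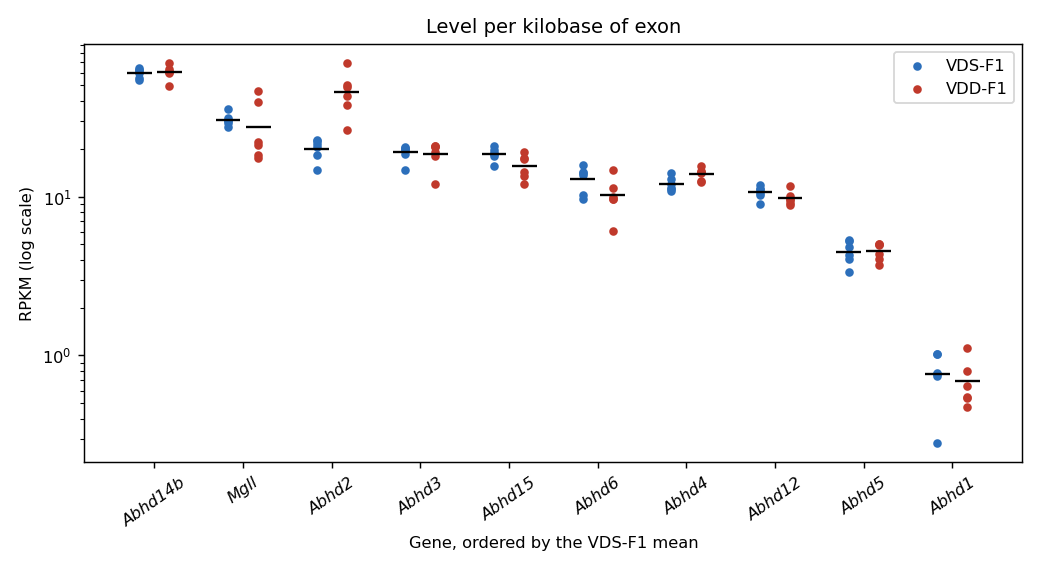
Level per length of each member in RPKM on a log axis, with 1 point per mouse, VDS-F1 in blue and VDD-F1 in red (n = 6 each), and a line at each group mean. The mean of Abhd2 is 20.0 RPKM in VDS-F1 and 45.7 RPKM in VDD-F1, and that of Abhd14b is 59.9 and 60.8 RPKM.

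Other genes of the Abhd family were counted from a list of 12, of which 10 passed the filter. None had an adjusted p under 0.05 with edgeR or DESeq2, and limma voom gave 1, Abhd10. At an unadjusted p under 0.05 there were 2 higher and 0 lower, and the median log2-fold change was 0.09. Abhd10, a mitochondrial thioesterase, had 4.26 ± 1.03 CPM in VDD-F1 and 2.82 ± 0.43 CPM in VDS-F1, with a log2-fold change of 0.60, a standard error of 0.20 and an adjusted p of 0.172 (edgeR). Abhd17c and Abhd17b, which remove palmitate from proteins, had log2-fold changes of 0.19 and 0.21 with adjusted p-values of 0.252 and 0.371 (edgeR). The acyl-protein thioesterases, which share that activity, gave 0 of 5 with edgeR, DESeq2 or limma voom, 1 at an unadjusted p under 0.05 and a median of 0.11. Ppt1 of this list had a log2-fold change of 0.30 with a standard error of 0.11 and an adjusted p of 0.222 (edgeR), followed by Ppt2 at 0.12 and Lyplal1 at 0.11.

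Genes that make or use the substrates of Abhd2, Mgll and Abhd6 were examined as a list of 10 for monoacylglycerol and endocannabinoid turnover, of which 7 passed the filter. With edgeR, DESeq2 and limma voom, 0 of 7 had an adjusted p under 0.05, 1 had an unadjusted p under 0.05 with edgeR, and the median log2-fold change was 0.00. Dagla, which makes 2-arachidonoylglycerol, had 2.67 ± 0.85 CPM in VDD-F1 and 1.74 ± 0.37 CPM in VDS-F1, with a log2-fold change of 0.61 and an adjusted p of 0.269 (edgeR). Daglb, the related enzyme, had 36.1 ± 10.2 and 44.4 ± 5.15 CPM, with a log2-fold change of −0.30 and an adjusted p of 0.382 (edgeR). Napepld, which makes N-acylethanolamines, had a log2-fold change of 0.50 and an adjusted p of 0.400 (edgeR). The cannabinoid receptor Cnr1 and the acyltransferases Mogat1 and Mogat2 were below the filter.

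Of the list of 14 genes for triacylglycerol lipolysis around Abhd5, 13 passed the filter. With edgeR 0 had an adjusted p under 0.05 and 3 had an unadjusted p under 0.05, all higher in VDD-F1, with a median log2-fold change of 0.07. DESeq2 and limma voom each gave an adjusted p under 0.05 to 2, Cidec and Plin4. Cidec, a protein that enlarges lipid droplets, had 10.6 ± 7.63 CPM in VDD-F1 and 1.87 ± 0.97 CPM in VDS-F1, and its groups did not overlap. Its log2-fold change was 2.52 with a standard error of 0.49 and an adjusted p of 0.0640 (edgeR). Plin4, a droplet coat protein, had 7.18 ± 3.77 and 2.52 ± 1.18 CPM, and its groups overlapped. The log2-fold change of Plin4 was 1.51, with a standard error of 0.36 and an adjusted p of 0.0905 (edgeR). Plin3 had a log2-fold change of 0.39 and an adjusted p of 0.282 (edgeR). Pnpla2, the partner of Abhd5, had 77.1 ± 16.4 and 73.6 ± 13.8 CPM with a log2-fold change of 0.07.

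All 16 genes in a list of other alpha/beta hydrolase fold genes passed the filter. Here too 0 had an adjusted p under 0.05 with edgeR, while 1 was higher and 2 were lower at an unadjusted p under 0.05, with a median of −0.02. DESeq2 and limma voom each gave an adjusted p under 0.05 to 3, Lpl, Lipc and Ndrg2. Lpl, the lipase that clears circulating triacylglycerol, had 71.8 ± 50.9 CPM in VDD-F1 and 16.3 ± 3.97 CPM in VDS-F1, with a log2-fold change of 2.14, a standard error of 0.52 and an adjusted p of 0.0918 (edgeR). Lipc, the hepatic lipase, had 88.0 ± 15.9 and 127 ± 13.7 CPM, with a log2-fold change of −0.52, a standard error of 0.12 and an adjusted p of 0.0855 (edgeR). Ndrg2 had a log2-fold change of −0.34 and an adjusted p of 0.144 (edgeR).

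The genes whose pattern over the 12 libraries was most like that of Abhd2 were found by the root mean square difference of log2 CPM, each gene centred on its own mean, among 12452 genes. The nearest were Anxa5 (0.196), Map2 (0.206), Abi2 (0.241), Nid1 (0.265) and Ltbp3 (0.269 log2 units). Their log2-fold changes between the diets were 0.90, 0.91, 0.94, 1.03 and 1.31. The measure covers the same libraries on which Abhd2 was chosen, so genes near it must share its diet difference and members without one must rank far away, and nothing is read from either. Anxa5, a phospholipid-binding annexin, had 150 ± 38.0 CPM in VDD-F1 and 80.3 ± 12.5 CPM in VDS-F1. Of the other 9 members, Abhd4 was nearest at rank 1467 and Mgll farthest at rank 11449, with a difference of 0.971 log2 units.

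Genes within 500 kb of Abhd2 were examined to see whether the difference extended along the chromosome. Of 47 genes listed there, 11 passed the filter including Abhd2. Of the 10 neighbours, 0 had an adjusted p under 0.05 with edgeR, DESeq2 or limma voom, and 1 had an unadjusted p under 0.05 with edgeR. That gene was Mfge8, the nearest tested gene on the upstream side, whose product is a secreted bridging protein for the uptake of dying cells. It had 15.7 CPM in VDD-F1 and 10.2 CPM in VDS-F1, with a log2-fold change of 0.63, a standard error of 0.26 and an adjusted p of 0.265 (edgeR). Polg, on the other side of Abhd2, had a log2-fold change of −0.01.

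**Figure D5:**
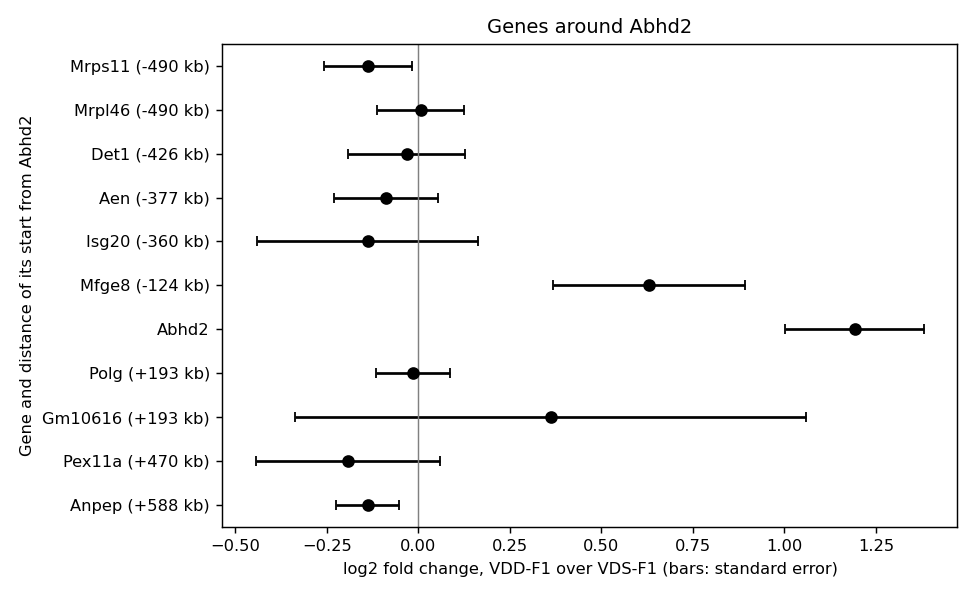
Log2-fold change with its standard error, VDD-F1 over VDS-F1, for Abhd2 and the 10 neighbours within 500 kb that passed the filter, in chromosome order with the distance of each start from that of Abhd2. Abhd2 is at 1.19 and Mfge8 at 0.63, and Gm10616 at 0.36 has the widest standard error, 0.70.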

How the data were processed

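Liver RNA of 6 VDD-F1 and 6 VDS-F1 mice was sequenced after ribosomal RNA depletion, with 1 library per mouse. After trimming, the authors mapped reads to mm10 (GRCm38, GENCODE M15) with STAR. They deposited its raw fragment counts for every gene, once without strand and once for each strand. The STAR version is not given in the sources used here. The reverse-strand count was used, which held 92.7% to 95.8% of stranded counts. Positions and exon lengths came from GENCODE M21, which matched 52403 of 52636 genes. The authors' rows for unassigned reads were left out, among them fragments without a feature, at 2.52% to 11.1% per library.

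Differential expression used edgeR 4.0.16 in R 4.3.3 (TMM, legacy quasi-likelihood fit) for genes whose mean count reached 12, with Benjamini-Hochberg adjustment over all 12453 genes. The study's methods name DESeq2, which was run as an alternative (version 1.42.0), as was voom in limma 3.58.1. Likeness used log2 CPM with a prior count of 2. Other alternatives were normalization, filters, strand, set of mice, replicate block and each mouse left out. Members and gene lists were chosen with earlier results of these data known. Members, the 3 genes of smallest p in each pathway list, genes sharing exon bases with a member, and the 5 genes most like Abhd2 are named, and marker genes and neighbours were chosen after their values were seen. Equal replicate numbers were not treated as pairs in the main fit: over 6 such pairs, deviations correlated at -0.076 to 0.10. Whether equal numbers shared a litter or a batch was not tested. Figures were drawn with matplotlib 3.10.9.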

Additional observations from a re-analysis of the deposited data

Results flagged for a closer look

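Abhd3 in VDD2 was 28.1 CPM, while the other 5 VDD-F1 mice had 41.9 to 48.6 CPM. Abhd3 in VDS2 was 34.5 CPM, while the other 5 VDS-F1 mice had 43.4 to 48.1 CPM. Each stood farther from its nearest group member than Dixon's 95% critical value for 6 samples allows. Chance flags about 1 in 20 groups, and 20 groups (10 members in each diet) were examined, with 2 found. Both mice belong to the set without a recorded liver weight.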

How the results depend on the processing

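The number of genes called depended on the fit. It was 5 in the main edgeR fit, 253 with DESeq2, 252 with voom and 17 with the newer form of edgeR. It was 70 without a filter, 21 with the set of mice as a covariate and 536 in mice with a recorded liver weight. In mice without one it was 0, and 473 genes had an unadjusted p under 0.05 with edgeR. Leaving out 1 mouse gave 0 (VDD4, VDD5, VDD6, VDS3, VDS4 or VDS5) to 260 (VDD1), with 94 without VDD3, 12 without VDS2 and 1 without VDS6. The replicate block gave 17. The cause was not tested. The members other than Abhd2 that were called stayed at 0 in all 23 alternatives. Where 0 of all genes were called, this outcome was fixed, so nothing is read from it there. Members whose diet effect differed between the sets were 0, and 0 to 1 when each mouse was left out (1 is Mgll without VDD2, where 332 of all genes differed between the sets against 11 with it). In mice without a recorded weight the log2-fold change turned to 0.50 for Abhd1 and 0.29 for Mgll. Of the 9, 4 kept their direction in all alternatives that gave a value. Abhd3, Abhd5 and Abhd14b, near 0, also changed sign. Only Mgll reached an adjusted p under 0.05 in any alternative, 0.00164 with edgeR in mice with a recorded weight. Abhd2 stayed between 1.04 (without VDD2) and 1.31 (without VDD1). Abhd1, with 10 to 30 counts per library, is limited by depth and fell below the filter when strand was ignored. The intervals cover the spread between these mice.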
